A study of Mus musculus with 8 samples.

Results

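A set of 10 genes of the ATF4 pathway and of serine and asparagine synthesis were examined in mouse acute myeloid leukemia (AML) cells driven by MLL-AF9. They were chosen by name and not by a rule on their values, but with earlier results of these data known. The genes are the transcription factors Atf4 and Ddit3, the stress genes Trib3 and Chac1, the asparagine synthetase gene Asns, the serine synthesis genes Phgdh, Psat1 and Psph, and the mitochondrial folate genes Shmt2 and Mthfd2. All 10 had a row among the 12823 rows of the count table. A gene was tested when 4 or more of the 8 libraries reached 1 CPM, which 9 of these genes did and Chac1 did not. CPM is the usual unit of a read count relative to the total of its library, here with the scaling factors of the trimmed mean of M values (TMM) applied.

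MLL-AF9 is a fusion of the genes KMT2A and MLLT3 that turns bone marrow progenitors into AML. The 4 libraries of newly generated leukemia (new AML) came from mouse bone marrow progenitors that had been given MLL-AF9 together with GFP and had grown in sublethally irradiated recipients. The 4 aggressive AML libraries came from cells described as derived from that leukemia by 5 serial transplantations. The recipients of these transplantations were not irradiated. In both groups the RNA was that of GFP-positive cells sorted from the bone marrow of C57BL/6 mice, and the labels name no drug treatment. The labels call the 4 libraries of a group biological replicates, and do not say whether each came from a separate transduction, so p-values measure the spread between these libraries. The question was how the expression of these genes differed after passage of the leukemia through mice.

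ATF4 is the effector of the integrated stress response. When the kinases GCN2, PERK, PKR or HRI phosphorylate the translation factor eIF2alpha, in response to missing amino acids, misfolded proteins, double-stranded RNA or a lack of heme, general protein synthesis drops while Atf4 mRNA is translated more, and the ATF4 protein then switches on amino acid transporters and the enzymes that make serine, glycine and asparagine. Since this control acts largely on translation, the level of Atf4 mRNA is not a measure of the ATF4 protein. Leukemia cells draw on asparagine from outside, which is the basis of asparaginase therapy in lymphoid leukemia, and on serine and folate metabolism for nucleotides.

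Library totals ranged from 7805544 to 9697777 counts, so that 3 counts corresponded to between 0.309 and 0.384 CPM before TMM scaling. The paper gives male mice for the RNA data of both groups. The 4 Y-linked genes checked summed to between 2315 and 2574 counts in each new AML library and to 0 in each aggressive AML library, although the second group is described as derived from the first. Passage and this difference between the groups cannot be told apart in any result given here. The 6 leukemia markers Hoxa9, Hoxa10, Meis1, Kit, Itgam and Ptprc all had rows, with a summed level of 1343 to 1641 CPM in new AML and 1286 to 1482 CPM in aggressive AML, and 2 of them were called higher and 2 lower. Neutrophil markers were lower in aggressive AML, with 7 of 7 called and a summed level of 126.7 to 177 CPM against 257 to 378 CPM. The 6 erythroid markers summed to 25.0 to 93.1 CPM in new AML and 8.72 to 49.7 CPM in aggressive AML, and 1 of 5 tested was called lower. The 2 macrophage markers with a row summed to 61.9 to 107.5 CPM against 37.0 to 56.4 CPM, with 1 called lower, and the 2 B cell markers with a row summed to at most 3.23 CPM in any library. Markers of T cells and NK cells had 0 rows and were not analysed here. In these bulk samples, a change in the share of such cells and a change of RNA per cell cannot be told apart, and their part in the results below was not tested.

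Of the 9 tested genes, 3 rose in aggressive AML, namely Atf4, Asns and Psat1, and 0 fell. Among all 12494 tested genes, 18.4% were called in either direction, 8.15% as higher and 10.2% as lower (edgeR quasi-likelihood test, Benjamini-Hochberg adjusted p under 0.05). The other 6 tested genes did not pass the threshold. All 9 had a log2 fold change above 0, as did 50.1% of all tested genes. An unadjusted p under 0.05 (edgeR) was found for 6 of the 9, and for 4070 of all 12494 tested genes. The median log2 fold change of the 9 was 0.40, against 0.00 over all tested genes. The genes Atf4, Asns and Psat1 were also those whose values did not overlap between the groups, with every aggressive AML library above every new AML library, as in 9.76% of tested genes.

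**Figure D1:**
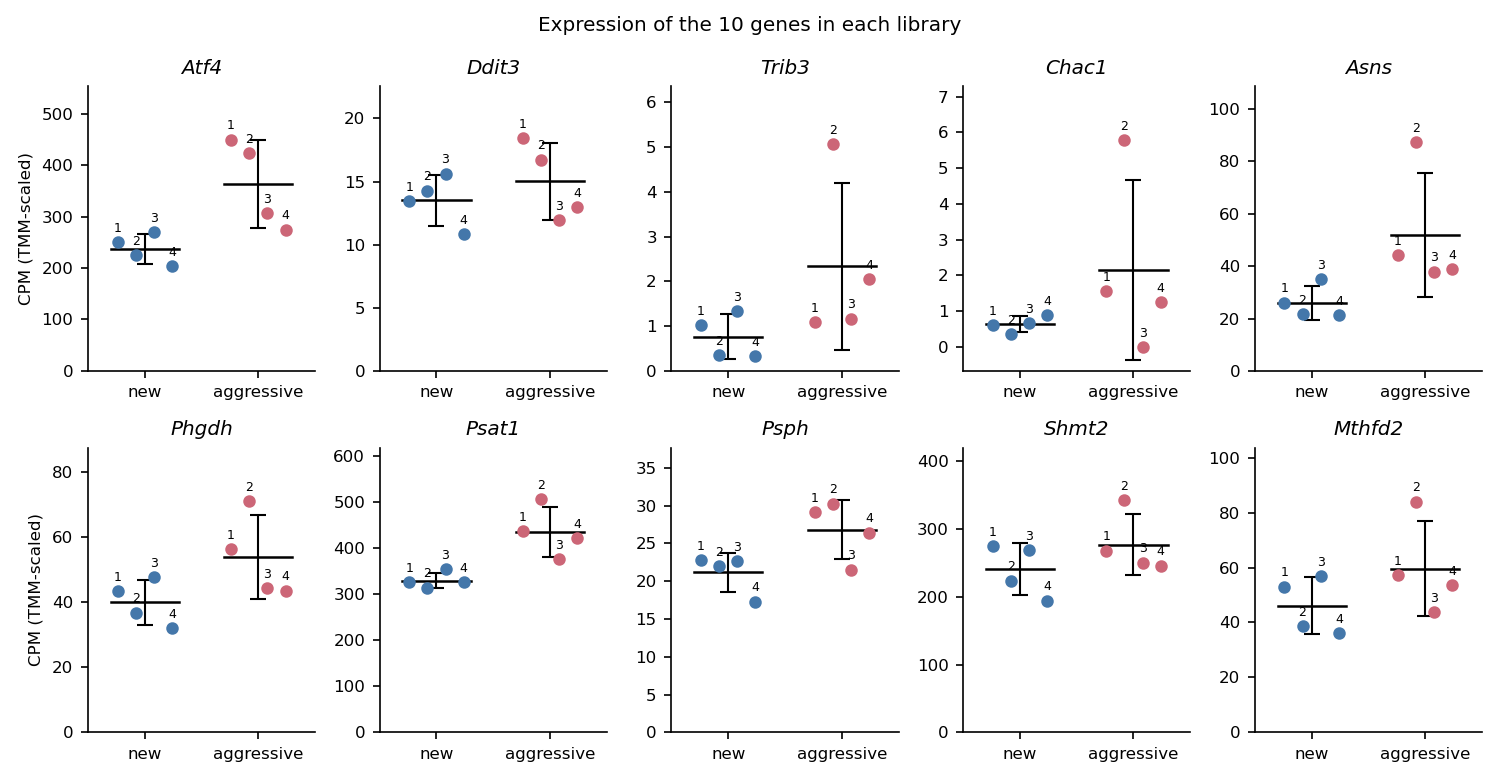
Expression of the 10 genes in CPM with TMM scaling (vertical axes), in the 4 new AML (blue) and 4 aggressive AML libraries (red). Points are libraries with their replicate number, and the line and bars give mean and SD (n = 4). Atf4, Asns and Psat1 separate without overlap, and aggressive AML replicate 2 is the highest of all libraries in 8 of the 10 panels.

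Atf4 was among the most abundant of these genes and rose in every aggressive AML library. The gene, ENSMUSG00000042406.8, lies on the plus strand of chromosome 15, at 80255184 to 80257541 in the mouse build GRCm38 (the same as mm10), and encodes the transcription factor that heads the pathway. It was measured at 249.9, 224, 270.0 and 204 CPM in new AML replicates 1 to 4, and at 449, 423, 306 and 274 CPM in aggressive AML replicates 1 to 4. Aggressive replicates 1 and 2 stood well above the other pair, and the lowest aggressive library lay just above the highest new one. The mean was 237 ± 28.9 CPM in new AML and 363 ± 85.8 CPM in aggressive AML (SD, n = 4). The log2 fold change was 0.62 with a standard error of 0.14 (edgeR, adjusted p = 0.00586). With the group labels permuted over the libraries in all 70 possible splits, the two-sided exact test gave p = 0.0286, the smallest it can give. The difference was between 0.50 and 0.73 on the log2 scale when any 1 library was left out, and it was called each time.

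Ddit3 encodes CHOP, a transcription factor that ATF4 induces and that promotes cell death under lasting stress. Its values were 13.4, 14.3, 15.6 and 10.8 CPM in new AML replicates 1 to 4 and 18.4, 16.7, 11.9 and 13.0 CPM in aggressive AML. Aggressive replicates 1 and 2 lay above all new AML libraries, as for Atf4, but replicates 3 and 4 lay within their range. The log2 fold change of 0.15 ± 0.17 (standard error) did not pass the test (edgeR, adjusted p = 0.579), nor did the exact permutation test (p = 0.486). At 127290774 to 127296288 on the plus strand of chromosome 10, the gene overlaps Mars, which lies on the opposite strand and has its own row. The strand setting of the counting is not given in the sources used here, so reads of the overlap cannot be assigned with certainty.

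Asns showed the largest log2 fold change among the called genes. It encodes the enzyme that makes asparagine from aspartate and glutamine, and lies on the minus strand of chromosome 6 at 7675169 to 7693254. In new AML it was at 26.1, 21.6, 35.1 and 21.3 CPM, and in aggressive AML at 44.2, 87.3, 37.8 and 38.9 CPM. Aggressive replicate 2 stood far above the other libraries of its group, and the remaining 3 were close together and still above all of new AML. The mean rose from 26.0 ± 6.45 to 52.1 ± 23.6 CPM (SD, n = 4). On the log2 scale the difference was 1.00 with a standard error of 0.24 (edgeR, adjusted p = 0.00914). The exact permutation test gave p = 0.0286. Without aggressive replicate 2, the aggressive mean was 40.3 ± 3.41 CPM (SD, n = 3), and the log2 fold change fell to 0.63 but was still called (adjusted p = 0.0183).

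The 3 enzymes of serine synthesis act in the order Phgdh, Psat1, Psph. Phgdh encodes phosphoglycerate dehydrogenase, which draws 3-phosphoglycerate out of glycolysis, Psat1 the aminotransferase that adds nitrogen from glutamate, and Psph the phosphatase that releases serine. Of these, Psat1 rose, while Phgdh and Psph did not pass the threshold.

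Psat1, on chromosome 19 (minus strand, 15904678 to 15947337), was at 326, 315, 354 and 326 CPM in new AML and at 438, 506, 377 and 422 CPM in aggressive AML. The new AML libraries were tightly grouped, with a coefficient of variation of 5.14%, and all aggressive libraries lay above them. The mean was 330.2 ± 17.0 against 436 ± 53.8 CPM (SD, n = 4). The log2 fold change of 0.40 was smaller than that of Trib3 or Phgdh, neither of which was called, but its standard error was only 0.09 (edgeR, adjusted p = 0.00455; exact permutation p = 0.0286). It lay between 0.32 and 0.47 with any 1 library left out and was called in all 8 of these fits.

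Phgdh was at 43.3, 36.7, 47.6 and 32.0 CPM in new AML and at 56.3, 70.9, 44.3 and 43.5 CPM in aggressive AML. New AML replicate 3 was above aggressive replicates 3 and 4, so the groups overlapped. The log2 fold change was 0.43 with a standard error of 0.16 (edgeR, adjusted p = 0.0704; exact permutation p = 0.114). The value lies close to the threshold, and was past it without new AML replicate 3 (adjusted p = 0.0409), without aggressive AML replicate 3 (0.0334) or without aggressive AML replicate 4 (0.0343), and with DESeq2 (0.0458). Its row carries a further limit. Phgdh, on chromosome 3 (minus strand, 98313170 to 98339990), has several processed pseudogenes of at least 95% identity, such as Gm7901 with 98.75% over 1597 bases. These copies have no row in the table, and how reads that match more than 1 place were counted is not given in the sources used here, so the Phgdh values are uncertain to an extent not measured here.

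Psph was at 22.8, 22.0, 22.6 and 17.3 CPM in new AML and at 29.2, 30.3, 21.5 and 26.4 CPM in aggressive AML. Aggressive replicate 3 fell among the new AML libraries, and the other 3 lay above all of them. Aggressive AML was higher by 0.34 on the log2 scale, with a standard error of 0.14 (edgeR, adjusted p = 0.0912; exact permutation p = 0.114). Without aggressive replicate 3 it was 0.44 and passed the threshold (adjusted p = 0.0244). The gene, on chromosome 5 (minus strand, 129765558 to 129787449), overlaps Cct6a on the opposite strand, and a transcript of Cct6a shares 452 bases with it, so reads there cannot be told apart without the strand.

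Shmt2 and Mthfd2 did not pass the threshold. They encode mitochondrial enzymes that take serine further: Shmt2 splits it into glycine and a folate-bound carbon unit, and Mthfd2 oxidizes that unit on its way to formate. Shmt2 was at 275, 224, 269 and 194 CPM in new AML and at 268, 342, 249.8 and 246 CPM in aggressive AML. Only aggressive replicate 2 was above all of new AML. Its log2 fold change was 0.20 with a standard error of 0.12 (edgeR, adjusted p = 0.263), and it was 0.08 without that library.

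Mthfd2 was at 53.1, 38.6, 56.9 and 36.1 CPM in new AML and at 57.2, 84.0, 43.7 and 53.6 CPM in aggressive AML. The groups overlapped broadly, with new AML replicates 1 and 3 in the range of the aggressive libraries. Its log2 fold change was 0.37 with a standard error of 0.18 (edgeR, adjusted p = 0.174), and 0.16 without aggressive replicate 2. Shmt2 lies on chromosome 10 (minus strand, 127517123 to 127522444) and Mthfd2 on chromosome 6 (minus strand, 83305691 to 83325908). In the annotation Shmt2 overlaps Ndufa4l2 on the opposite strand, Mthfd2 overlaps Gm43890 on its own strand and Psat1 overlaps the pseudogene Gm3329 on the opposite strand, and none of these has a row in the table.

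**Figure D2:**
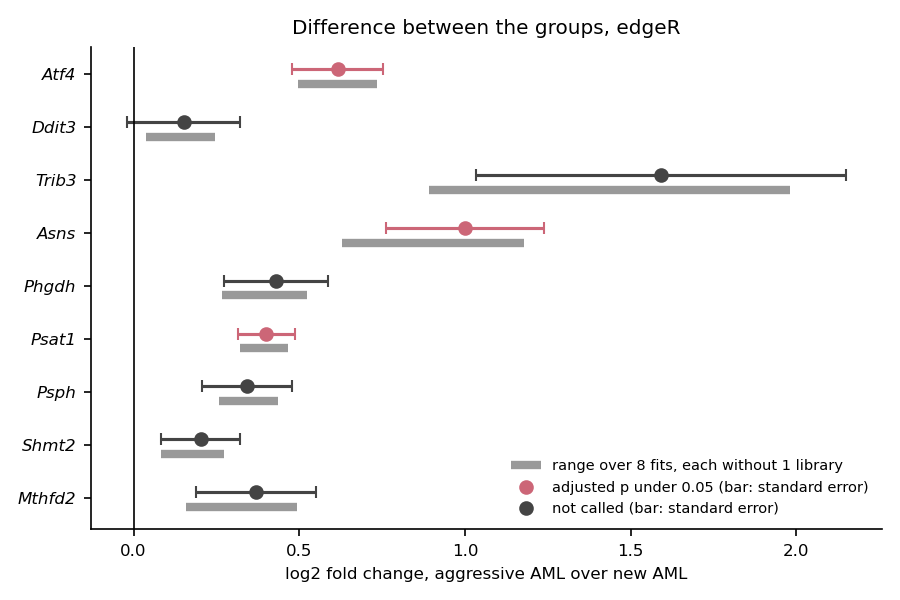
Log2 fold change of aggressive AML over new AML (horizontal axis) for the 9 tested genes, from edgeR with its standard error (thin bars), and its range over the 8 fits that each left out 1 library (thick grey bars). Atf4, Asns and Psat1, in red, have an adjusted p under 0.05, and all 9 ranges lie above 0.

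Trib3 and Chac1 were close to the limit of detection. Trib3 encodes a pseudokinase that ATF4 and CHOP induce and that restrains them in turn, and Chac1 an enzyme that degrades glutathione. Trib3 had 10, 3, 12 and 3 counts in new AML and 9, 43, 9 and 18 counts in aggressive AML, or 1.03, 0.357, 1.34 and 0.334 CPM against 1.08, 5.07, 1.17 and 2.05 CPM. Aggressive replicates 1 and 3 lay within the new AML range, and replicate 2 held more than the rest of its group together. The log2 fold change was 1.59 with a standard error of 0.56 (edgeR, adjusted p = 0.0602; exact permutation p = 0.114). Without aggressive replicate 2 it fell to 0.89 (adjusted p = 0.275), while leaving out new AML replicate 3, aggressive replicate 1 or aggressive replicate 3, or the use of DESeq2, took the adjusted p to 0.0435, 0.0414, 0.0353 and 0.0460.

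Chac1 had 6, 3, 6 and 8 counts in new AML and 13, 49, 0 and 11 counts in aggressive AML. Replicate 2 was again the highest, at 5.77 CPM, and in replicate 3 the gene was not detected, which at this depth allows up to 3 counts or 0.384 CPM. The mean was 0.633 ± 0.220 CPM in new AML and 2.15 ± 2.51 CPM in aggressive AML (SD, n = 4), and the aggressive mean was 0.939 ± 0.828 CPM without replicate 2 (SD, n = 3). The groups overlapped (exact permutation p = 0.400), and a fit without the filter on low values gave a log2 fold change of 1.75 with an adjusted p of 0.118 (edgeR). Both genes lie on chromosome 2, Trib3 on the minus strand at 152337422 to 152344032 and Chac1 on the plus strand at 119351229 to 119354381.

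Asns, Trib3 and Chac1 were the only ones of the 10 genes with a match to the core of the C/EBP-ATF response element near the start. ATF4 binds such elements together with a C/EBP factor. The letters TGATGNAA were searched on both strands in the RefSeq promoter windows of GRCm38.p6, which span 250 bases before to 50 bases after each start, and a match is a description and not a proven site. Matches were found for 3 of the 10 genes and for 4.51% of all 27025 genes with a window. The matching stretches of all 3 genes with a match are shown. They run 5′ to 3′ along the strand of the gene, with the 8 matching letters in capitals and 10 bases on each side.
Asns, chr6:7693215-7693242, minus strand: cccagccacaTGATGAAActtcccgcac
Chac1, chr2:119351039-119351066, plus strand: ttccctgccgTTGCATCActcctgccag
Trib3, chr2:152344029-152344056, minus strand: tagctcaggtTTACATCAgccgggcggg

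In Asns the letters stand in the reading direction of the gene, and in Chac1 and Trib3 in the reverse orientation. The capitals begin 23 bases before the RefSeq start in Asns, 193 bases before it in Chac1 and 15 bases after it in Trib3. Annotations differ on the starts: in the GENCODE gene models the Asns match lies 23 bases inside the gene, and the Trib3 match ends 7 bases before it. The cAMP response element TGACGTCA, which reads the same on both strands, was found in 0 of the 10 genes and in 2.03% of all genes. No match of either kind in a window says only that these letters are not in it.

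The spread among replicates was shared by these genes, a pattern noticed after their values were seen. Aggressive AML replicate 2 was the highest of all 8 libraries in 8 of the 10 genes, the exceptions being Atf4 and Ddit3, which were highest in aggressive replicate 1. Among all tested genes, 10.5% were highest in replicate 2. Within the aggressive group alone, replicate 2 was the highest in 8 of the 10 genes, against 21.5% of all tested genes. Its value over the mean of the other 3 aggressive libraries was 6.15 for Chac1, 3.54 for Trib3, 2.16 for Asns, 1.63 for Mthfd2, 1.48 for Phgdh and 1.35 for Shmt2, and between 1.16 and 1.23 for Atf4, Psat1, Psph and Ddit3. Aggressive replicate 3 was the lowest of its group in 6 of the 10 genes, against 33.0% of all tested genes. In new AML, replicates 1 and 3 both lay above replicates 2 and 4 in 7 of the 10 genes, against 18.8% of all tested genes. The erythroid and macrophage marker sums were lowest in aggressive replicate 2, at 8.72 and 37.0 CPM, and the neutrophil sum there was 157 CPM, within the range of its group.

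**Figure D3:**
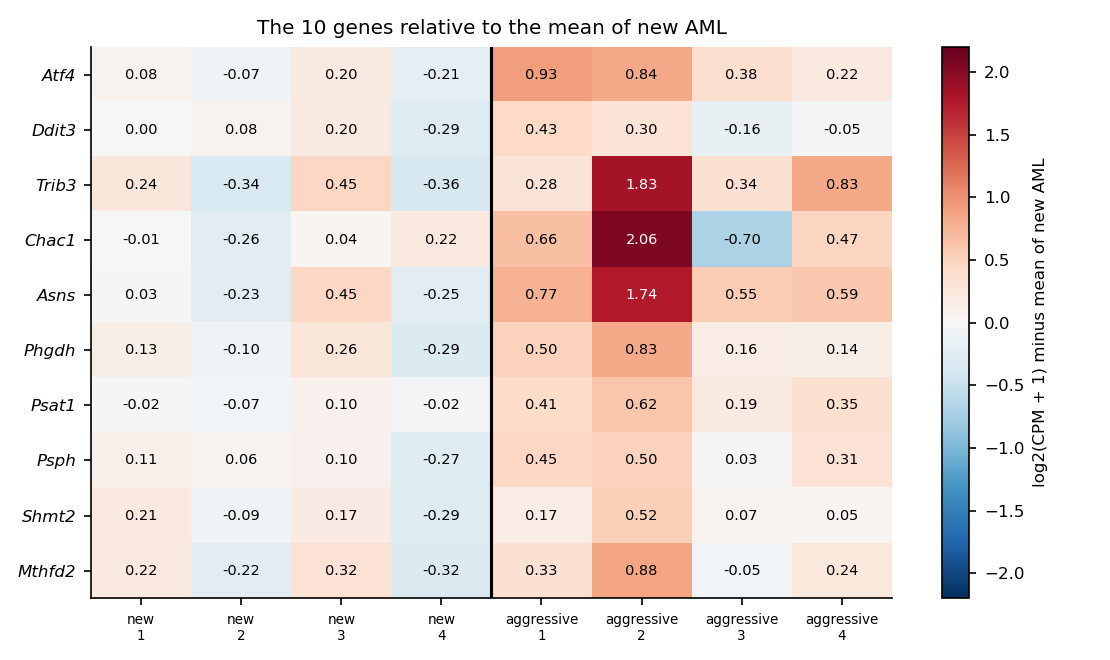
Level of each gene (rows) in each library (columns) as log2(CPM + 1) minus the mean of the 4 new AML libraries, printed in each cell and shown by colour. Aggressive AML replicate 2 reaches 2.06 for Chac1, 1.83 for Trib3 and 1.74 for Asns, and replicate 3 stands at -0.70 for Chac1.

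The genes whose variation within the groups was most like that of the 9 tested genes were sought among 9281 other genes with a mean of at least 10 CPM. The measure was Pearson's r over the 8 libraries, on log2(CPM + 1). It compared the deviations of a gene from its group mean with the average deviation of the 9 tested genes, without Chac1. Before averaging, the deviations of each of the 9 were divided by that gene's SD within the groups. This r was highest for Hspa8, a constitutive heat shock chaperone, with r = 0.984, followed by Aldh18a1, which makes the precursor of proline, with 0.981. Next came Mrps2 (0.965), Gnl3 (0.963), Zdhhc9 (0.963) and Cmss1 (0.962). The values share their libraries and their depth, and the choice is unstable: leaving out 1 library at a time kept between 0 and 2 of these 6 genes. Likeness within groups did not mean the same difference between groups, since Hspa8 fell in aggressive AML, with a log2 fold change of -0.68 (edgeR, adjusted p = 0.00174). The values of the 9 tested genes themselves correlated with their own average at 0.815 for Ddit3 up to 0.984 for Phgdh. Each of the 9 is part of that average, so a high r is partly built in.

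Levels of different genes were compared as CPM per kilobase of the longest transcript. In new AML the median was highest for Psat1, at 124.5 CPM per kilobase, followed by Atf4 at 117 and Shmt2 at 107.5, and these 3 overlapped from neighbour to neighbour. Mthfd2 at 22.0, Phgdh at 21.1, Ddit3 at 14.3 and Asns at 11.8 followed. Mthfd2 overlapped with Phgdh, and Ddit3 with Asns, while Phgdh lay above Ddit3 in every library. Psph stood at 7.76, and Chac1 at 0.392 and Trib3 at 0.341 were lowest and overlapped.

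In aggressive AML, Atf4 came first at 180.7 and Psat1 next at 164, which overlapped, and Asns at 20.6 moved ahead of Ddit3 at 15.3. Shmt2 stood at 113, Mthfd2 and Phgdh at 26.6 each, Psph at 9.65, Chac1 at 0.861 and Trib3 at 0.793 CPM per kilobase. Every neighbour in this order overlapped with the next, except that Shmt2 lay above Mthfd2, Ddit3 above Psph and Psph above Chac1 without overlap. With the longest coding transcript as the length, Atf4 stood above Psat1 and Psph above Asns in new AML, so the order there depends on the transcript model.

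Genes next to the 10 in the pathway were read from 7 lists. Of 112 genes listed, 96 had a row and 93 were tested, of which 11 rose, 7 fell and 75 did not pass the threshold. Among all 12494 tested genes, 18.4% were called, 8.15% as higher and 10.2% as lower, so these counts alone do not set the lists apart. Among the genes upstream of ATF4, around eIF2alpha, 1 of 15 tested rose and 2 fell, with a median log2 fold change of -0.05. The genes that fell were Eif2ak2, which encodes the double-stranded RNA kinase PKR (-0.51, adjusted p = 0.00996), and Eif2ak1, which encodes the heme-regulated kinase HRI (-0.31, adjusted p = 0.0132). Eif2b3, a subunit of the factor that recycles eIF2, rose by 0.57 (adjusted p = 0.00623). Eif2s1, which encodes eIF2alpha itself, had a log2 fold change of 0.18 (adjusted p = 0.154), and Ppp1r15b, a subunit of the phosphatase that removes its phosphate, one of -0.05 (adjusted p = 0.655). All are edgeR values.

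Partners and relatives of ATF4 and CHOP moved in both directions, with 3 of 10 tested genes higher, 1 lower and a median log2 fold change of -0.08. The share called was 40.0%, against 18.4% of all tested genes. Trib1, a relative of Trib3 that promotes the breakdown of C/EBP proteins, was at 5.23, 9.51, 15.1 and 6.02 CPM in new AML and 29.8, 25.8, 18.5 and 11.8 CPM in aggressive AML. Only aggressive replicate 4 fell among the new AML libraries, and the log2 fold change was 1.26 (edgeR, adjusted p = 0.0104). Cebpe, a factor of late granulocyte maturation, rose by 1.10 (adjusted p = 0.00233), and Cebpd fell, with a log2 fold change of -0.59 (adjusted p = 0.00758).

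Atf5, a close relative of Atf4, was at 29.8, 19.1, 30.0 and 23.2 CPM in new AML and 38.3, 66.2, 23.3 and 39.0 CPM in aggressive AML. It was highest in aggressive replicate 2 and lay within the new AML range in replicate 3. It was barely past the threshold, with a log2 fold change of 0.71 (edgeR, adjusted p = 0.0489), and was called in only 6 of 17 alternatives. The call was lost in 6 of the 8 fits without 1 library, among them that without aggressive replicate 2 (adjusted p = 0.183), and with DESeq2 (0.125), limma (0.0742) and the replicate block (0.094). Cebpa (-0.10, adjusted p = 0.601) and Cebpb (-0.29, adjusted p = 0.154) did not pass the threshold. Cebpg, whose product pairs with ATF4 and which is named here after its values were seen, was at 16.1 CPM in aggressive replicate 3 and between 60.5 and 69.9 CPM in the rest of that group.

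Other reported targets of ATF4 in transport and stress had 5 of 16 tested genes higher and 0 lower (edgeR; 1 was lower at an unadjusted p under 0.05, and DESeq2 and limma called 0 lower), with a median log2 fold change of 0.14. The share called was 31.25%, against 18.4% of all tested genes. Pycr1, which makes proline, was at 33.5, 33.2, 32.2 and 30.3 CPM in new AML and at 50.6, 48.4, 48.2 and 48.4 CPM in aggressive AML. Its libraries were tightly grouped without overlap, unlike those of Asns, and the log2 fold change was 0.60 (edgeR, adjusted p = 0.000333). Eif4ebp1, a repressor of translation, rose by 0.55 (adjusted p = 0.00129).

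The amino acid transporter genes Slc3a2 (0.52, adjusted p = 0.0141), Slc7a5 (0.47, adjusted p = 0.0303) and Slc7a1 (0.42, adjusted p = 0.0160) rose as well. Slc3a2 and Slc7a5 encode the chains of a carrier for large neutral amino acids, and Slc7a1 an arginine carrier. All 3 lost the call without aggressive AML replicate 2 (adjusted p = 0.0520, 0.101 and 0.0596) and without new AML replicate 4, which left Pycr1 and Eif4ebp1, and without new AML replicate 2 the call was lost for Slc7a5 and Slc7a1. Pck2, also named after its values were seen, was called lower only without aggressive replicate 2 (log2 fold change -0.32, adjusted p = 0.0366). Vldlr, a lipoprotein receptor gene named for the same reason, was left out by the filter on low values, with 13, 23, 5 and 16 counts in new AML and 3, 0, 1 and 3 counts in aggressive AML. Its groups did not overlap, and a fit without that filter called it lower (edgeR, adjusted p = 0.00815). The glutamine carriers Slc1a5 (0.12, adjusted p = 0.399) and Slc38a2 (-0.04, adjusted p = 0.83) did not pass the threshold.

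Of the other genes of folate-bound carbon units and of serine and glycine, 2 of 23 tested rose and 0 fell (edgeR; 2 were lower at an unadjusted p under 0.05, and DESeq2 and limma called 0 lower), with a median of 0.05. The share called was 8.70%, against 18.4% of all tested genes. Mthfd1l, the mitochondrial enzyme that releases formate, was at 129.6, 113, 125 and 102 CPM in new AML and 169, 171, 145 and 148 CPM in aggressive AML, without overlap. Its log2 fold change was 0.43 (edgeR, adjusted p = 0.00422). Shmt1, the cytosolic counterpart of Shmt2, rose by 0.28 (adjusted p = 0.0469), a call present in only 3 of the 8 fits without 1 library. The purine enzymes Gart (0.01, adjusted p = 0.938) and Atic (0.02, adjusted p = 0.880), the most abundant of the list that were not called, did not pass the threshold.

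Neighbours of asparagine synthesis in aspartate and glutamine metabolism had 0 of 9 tested genes called by edgeR, with 2 higher and 1 lower at an unadjusted p under 0.05. Over all tested genes the share called was 18.4%. Got2, an aspartate aminotransferase gene named here after its values were seen, was close to the threshold (edgeR, adjusted p = 0.0518) and was called higher in 9 of 17 alternatives, among them DESeq2 (0.0338), limma (0.0471) and the replicate block (0.0265). Ass1, which joins aspartate to citrulline and is also named after its values were seen, was called lower only without new AML replicate 4 (log2 fold change -0.82, adjusted p = 0.0346). Glud1, which encodes glutamate dehydrogenase, had a log2 fold change of 0.01 (adjusted p = 0.913). The 6 glutathione genes tested beside Chac1 had 0 calls with edgeR, DESeq2 and limma, and 0 at an unadjusted p under 0.05. Gclc and Gclm, the subunits of the enzyme that starts glutathione synthesis, had log2 fold changes of 0.02 (adjusted p = 0.920) and -0.08 (adjusted p = 0.652).

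The other arms of the unfolded protein response, which run through XBP1 and ATF6, had 0 of 14 tested genes higher and 4 lower, with a median of -0.11 and 0 higher at an unadjusted p under 0.05 (edgeR). The share called was 28.6%, against 18.4% of all tested genes. DESeq2 called 0 higher and 4 lower. The genes that fell were Sdf2l1 (-0.48, adjusted p = 0.0271), Creld2 (-0.46, adjusted p = 0.0237), Ern1, which encodes the sensor IRE1 (-0.39, adjusted p = 0.0422), and the chaperone gene Hsp90b1 (-0.26, adjusted p = 0.0286). These calls were near the threshold, and 0 of the 14 genes were called without new AML replicate 1. The main chaperone of the endoplasmic reticulum, Hspa5 (-0.08, adjusted p = 0.597), and Pdia6 (-0.09, adjusted p = 0.503) did not pass it. In these 14 genes aggressive replicate 2 was the highest library 0 times, and among the 18 transport and stress targets with a row 12 times. Among all tested genes the share was 10.5%. Which of all 8 libraries is highest also depends on the difference between the groups, so these counts do not describe replicate 2 alone.

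**Figure D4:**
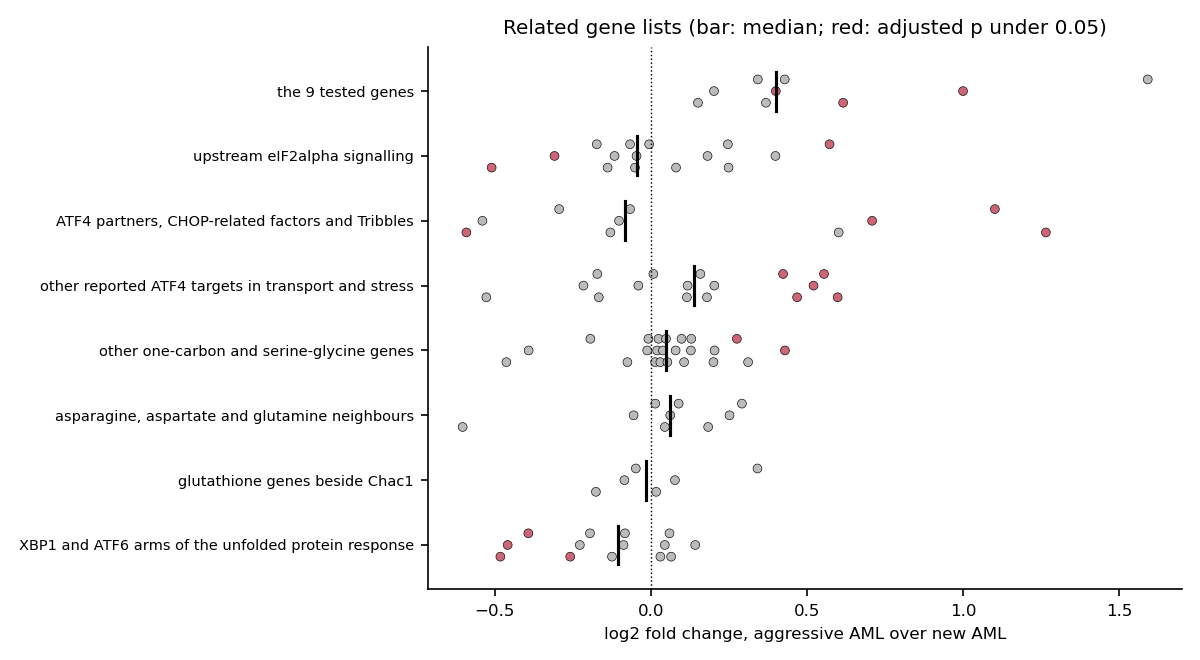
Log2 fold change of aggressive AML over new AML (horizontal axis) for the 9 tested genes in the top line and for the tested genes of the 7 related lists, with each point a gene, red where the adjusted p is under 0.05, and a bar at the median. The medians run from -0.11 for the XBP1 and ATF6 arms to 0.40 for the 9 genes.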

How the data were processed

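The authors sorted GFP-positive cells, selected their polyadenylated RNA, aligned the paired reads to mm10 with HISAT2 and obtained gene counts with Rsubread. The deposited table, although named for CPM, holds only whole numbers whose sums differ from library to library, and these were used as raw counts per gene. The gene annotation and strand setting are not given in the sources used here. The authors also applied a filter at 1 CPM. The 10 genes, the related lists and the markers were chosen with earlier results of these data known.

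All 12494 genes that reached 1 CPM in 4 or more of the 8 libraries were fitted with edgeR 4.0.16 (R 4.3.3), with TMM factors of 0.986 to 1.01, the group as the only term, the two-sided quasi-likelihood test and Benjamini-Hochberg adjustment over all tested genes with a threshold of 0.05. The study used limma on log2 CPM. The count test replaced it, and limma 3.58.1 is an alternative beside DESeq2 1.42.0, other scaling factors and filters, a replicate block and leaving out each library. The biological coefficient of variation was 0.118. The script was tested on simulated data. Replicates differed beyond sampling noise in every pair within a group, with a chi-square per degree of freedom of 4.12 to 11.2, so none was counted as a duplicate. The 8 libraries of 1 table were compared with no batch recorded, and a batch that follows the group cannot be told apart from it. Limits from 3 counts cover counting error only.

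In each list the called genes, up to 5 with the largest fold change, and the 2 most abundant genes not called were named, beside the 6 genes most like the 9 tested ones in their variation. A gene that this rule selects is not reported here. Coordinates and transcript lengths are from GENCODE and promoter windows from RefSeq, both of GRCm38, where all 10 genes were matched.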

Additional observations from a re-analysis of the deposited data

Results flagged for a closer look

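Dixon's test for groups of 4, at its 95% critical value, was applied to the CPM of each gene in each group, for the 10 genes and the related lists. It marked a library that stood apart in 17 of 212 groups, and in 2 of 20 among the 10 genes, where chance marks about 1 in 20. Asns in aggressive AML replicate 2 was at 87.3 CPM, with the next library at 44.2 CPM. Psph in new AML replicate 4 was at 17.3 CPM, with the next at 22.0 CPM. Among the named genes of the lists, aggressive AML replicate 3 was low for Cebpd, at 30.6 CPM against 49.4 CPM in the next library, and for Cebpe, at 34.9 CPM against 66.7 CPM. Pycr1 was at 50.6 CPM in aggressive AML replicate 1 with the next library at 48.4 CPM, a gap that is large only against the narrow range of that group.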

How the results depend on the processing

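Atf4, Asns and Psat1 were called under all 17 alternatives, with adjusted p-values of at most 0.0245, 0.0350 and 0.0222, and no alternative turned the direction of any of the 9 tested genes. Of these, 3 were called higher in the main analysis, 5 with DESeq2 (Trib3 and Phgdh added) and 3 to 6 with 1 library left out, namely 5 without new AML replicate 3 and 6 without aggressive AML replicate 3. No setting called any lower, with a count of 0. Genes whose groups did not overlap numbered 3, and 3 to 5 with 1 library left out. A group of 3 libraries separates more easily than a group of 4, and the share over all genes is not given for these settings. Calls over all genes numbered 2296, and 1534 to 2381 with 1 library left out. Over the related lists, 11 genes were called higher and 7 lower. With 1 library left out these ranged from 6 to 15 higher, with 7 without new AML replicate 2 and 6 each without new AML replicate 4 and aggressive AML replicate 2, and from 3 to 7 lower, with 3 without new AML replicate 1 and 4 each without new AML replicate 3 and aggressive AML replicate 3. The cause was not tested. Of the 6 genes most like the 9 tested ones, 0 to 2 were shared with 1 library left out. With the replicate block, 3 of the 9 genes were called, namely Atf4, Asns and Psat1, and 2367 of all genes. Deviations of same-numbered libraries correlated at 0.0967, -0.0399, -0.0654 and 0.204, and 2 of 4 new AML libraries correlated best with their own number. So few values cannot decide whether the numbers pair the libraries. The coding-transcript lengths were added after seeing the data. Depth limits Trib3 and Chac1, which had at most 49 counts in a library.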
